A study of Mus musculus with 6 samples.

Results

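The genes described here are those of MHC class I and class II antigen presentation in mouse choroid plexus, 30 genes listed by name. A probe set, the group of short probes that measures one transcript on an oligonucleotide array, was taken as theirs where the platform annotation gave it that single gene symbol. Of the 30 genes 25 had such a probe set, with 56 probe sets in all, and 21 genes (40 probe sets) passed a filter that left out the dimmest 40% of the 45037 probe sets. The whole table held 18193 genes with a probe set of 1 symbol, 13537 of them past the filter. The listed genes fall into 11 genes of the class II pathway, 8 of class I and its regulator, 6 of peptide transport and loading, and 5 of the immunoproteasome and its activator.

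Each of 6 single-colour arrays measured total RNA of 1 preparation of choroid plexus epithelium, the lining of the ventricles that secretes cerebrospinal fluid, taken from whole brain. By the sample descriptions 3 came from wild type (WT) B10.PL mice and 3 from RAG-/- B10.PL mice. RAG1 and RAG2 cut and join the genes of antigen receptors, and mice lacking either have no mature T or B cells, while macrophages and other myeloid cells remain. The labels give neither which RAG gene was disrupted, nor the age of the mice, nor whether a preparation pooled animals. Thus p-values rest on the spread from sample to sample alone, part of which may be technical. Each title holds a code that recurs in the title of 1 sample of the opposite genotype, which makes 3 pairs, and pair 1 is WT 1 with RAG-/- 1. For pair 1 the descriptions say that the samples had been swapped, and they contradict the genotype in both titles. Genotypes below follow the descriptions, and values with the genotype in the titles, where WT 1 counts as RAG-/- and RAG-/- 1 as WT, stand beside them.

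Class II molecules show peptides from the vesicles of a cell to CD4+ T cells and are normally made by dendritic cells, B cells and macrophages. Class I molecules are made by nearly all nucleated cells and show peptides, cut by the proteasome and pumped into the endoplasmic reticulum, to CD8+ T cells. Class II genes depend on the coactivator CIITA and class I genes on its relative NLRC5. Both work through factors bound at conserved promoter boxes named X and Y, and interferon gamma raises both sets of genes. Choroid plexus contains resident macrophages in its stroma and on its epithelium, so that class II signal in such a preparation need not come from epithelial cells. B10.PL mice carry the u haplotype of the MHC, and a probe may bind an allele of that haplotype less well than another. Whether these probes do was not tested. The brightest probe sets of H2-Aa, H2-D1 and H2-K1 carry an _x suffix, the platform's mark for probes that may also bind other transcripts, so their values may not measure separate genes.

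The promoter letters of the 2 kinds of genes are shown first. Whether they bear on the levels given below was not tested. RefSeq promoter windows of assembly GRCm38.p6, from 250 bases before to 50 bases after the start, matched 25 of the 30 genes by symbol, with 28 windows because some genes have 2 starts. Promoters of H2-Ab1, Cd74, Ciita, Tap2 and Nlrc5 were not analysed here. The letters are those of the reference strain and not of B10.PL. Capitals mark matches, on either strand, to the Y box core GATTGG, to letters of the X box CCNAGNNAC, to kappa B letters GGGNNTTCC, the motif of NF-kappa B, and to ISRE letters TTTCNNTTT, the motif of interferon regulatory factors. A match is a run of letters and does not show that a factor binds there. Each sequence runs 5′ to 3′ on the gene's strand and ends with the base before the start.

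The class II windows are shown for the alpha chain H2-Aa, the beta chain H2-Eb1 and H2-Ob, a subunit of the H2-O inhibitor of peptide exchange, to show the Y box on the gene's strand and, in H2-Ob, an X box match before it.
H2-Aa, chr17:34287824-34288023, minus strand: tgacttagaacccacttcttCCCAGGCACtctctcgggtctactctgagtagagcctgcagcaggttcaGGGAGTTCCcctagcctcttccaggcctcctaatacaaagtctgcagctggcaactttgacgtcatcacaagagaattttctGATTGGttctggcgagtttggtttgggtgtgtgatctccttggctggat
H2-Eb1, chr17:34305667-34305866, plus strand: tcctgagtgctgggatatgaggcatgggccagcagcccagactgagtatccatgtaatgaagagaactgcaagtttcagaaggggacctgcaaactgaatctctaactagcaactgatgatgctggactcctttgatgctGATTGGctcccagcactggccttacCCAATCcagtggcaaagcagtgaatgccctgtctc
H2-Ob, chr17:34238705-34238904, plus strand: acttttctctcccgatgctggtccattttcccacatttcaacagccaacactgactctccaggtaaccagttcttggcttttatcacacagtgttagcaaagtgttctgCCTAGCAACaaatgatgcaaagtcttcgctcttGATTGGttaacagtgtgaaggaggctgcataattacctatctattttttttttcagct

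The class I windows are shown for the heavy chains H2-D1 and H2-K1 and for the light chain B2m. They show the letters of the Y box core on the other strand in both heavy chains and the kappa B letters farther upstream. Both heavy chains also hold cattgg on the gene's strand, which misses the core by its first letter and was not counted. Which run serves as the Y box was not tested.
H2-D1, chr17:35262894-35263093, plus strand: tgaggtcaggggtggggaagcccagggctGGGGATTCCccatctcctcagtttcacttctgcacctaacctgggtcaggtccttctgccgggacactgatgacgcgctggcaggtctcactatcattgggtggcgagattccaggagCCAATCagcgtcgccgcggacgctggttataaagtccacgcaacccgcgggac
H2-K1, chr17:34000334-34000533, minus strand: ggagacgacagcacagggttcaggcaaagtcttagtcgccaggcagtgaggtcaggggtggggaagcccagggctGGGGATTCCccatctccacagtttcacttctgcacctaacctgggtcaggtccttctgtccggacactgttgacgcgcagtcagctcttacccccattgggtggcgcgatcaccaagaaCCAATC
B2m, chr2:122147487-122147686, plus strand: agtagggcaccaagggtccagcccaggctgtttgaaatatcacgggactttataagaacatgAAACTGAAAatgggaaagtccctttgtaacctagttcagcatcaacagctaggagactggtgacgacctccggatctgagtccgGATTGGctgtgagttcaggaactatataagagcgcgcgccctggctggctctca

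The Y box core lay in 8 of 9 class II windows on the gene's strand (88.9%), against 8.71% of the 32851 windows of all genes. Among class I windows 6 of 8 (75%) held it on the other strand, read as CCAATC, against 8.39% of all windows. Of the other class I promoters, B2m held the core on the gene's own strand 54 bases before the start, and the window of H2-M3 held no match. The left end of the core lay 49 bases before the start in H2-Aa, 60 in H2-Eb1, 58 in H2-Ob and 53 in H2-D1, and 6 in the window of H2-K1 shown. H2-K1 has a second window, whose start lies a few bases upstream, and the same letters are found in it. The 8 class I windows thus come from 7 genes. Their counts of the Y box core above and of kappa B letters below hold the H2-K1 matches in both windows. Kappa B letters were found in 5 of 8 class I windows (62.5%), in 2 of 9 class II windows (22.2%) and in 5.82% of all windows. X box letters were found in 5 of 9 class II windows (55.6%), in 0 of 8 class I windows and in 17.3% of all windows. H2-Eb1, for example, holds actagcaac before its Y box match, which differs from the X box letters in its first base and was not counted. A window without a match may thus still hold an X or Y box spelled otherwise, which was not searched. An X box match 15 to 40 bases before a Y box on the same strand was found in H2-Oa, H2-DMb1 and H2-Ob, at 36, 36 and 33 bases, against 0.195% of all windows. That upper distance was set after the positions had been seen. ISRE letters lay in 2 of 9 class II windows, in 2 of 8 class I windows, among them B2m, and in 10.6% of all windows.

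**Figure D1:**
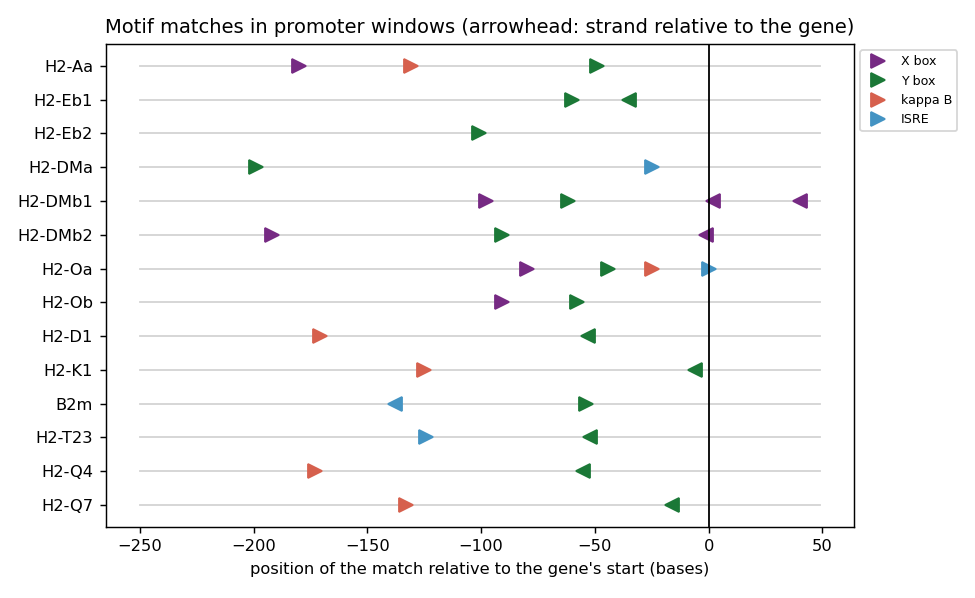
Position of motif matches relative to the start (bases, 0 at the start) in 1 window each of 14 class II and class I genes, with the arrowhead giving the strand relative to the gene and the colour the motif. Green arrowheads, for matches to the Y box core GATTGG, point along the gene in the class II genes and in B2m. They point the other way in the class I heavy chains. Other spellings of the box were not searched. H2-Eb1 has 1 in each direction.

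The 6 arrays had median deposited intensities between 77.8 and 97.1, and correlations over probe sets between 0.853 and 0.969. RAG-/- 2 stood apart, at 106 on the first principal component (48.4% of the variance), where the other arrays lay between -69.3 and 31.2. Ttr, the hormone carrier that marks this epithelium, was between 14.69 and 14.83 in every array as log2(intensity + 16), the scale of all levels below. The mean of 9 epithelial genes, however, was 12.87 in RAG-/- 2 and between 13.59 and 13.81 in the other arrays. The mean of 10 neuron genes was 12.16 in RAG-/- 2 and between 9.05 and 11.04 in the other arrays. The part of these differences in the levels below was not tested. Xist, the RNA made from the inactive X chromosome of females, was at 9.04 in RAG-/- 1 and 7.43 in RAG-/- 3 and between 12.20 and 13.19 in the other 4 arrays. Its part in the results below was not tested.

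The antigen presenting chains of class II were measured well above the dimmest probe sets. The probe set of H2-Aa lay at the 90.2 percentile of all probe sets, H2-Eb1 at 77.6, the peptide editor H2-DMa at 72.2, the invariant chain Cd74 at 70.7 and H2-Ab1 at 62.5, whereas Ciita lay at 46.1. The class I genes lay at 95.9 for B2m, 89.9 for H2-D1, 87.1 for H2-K1, 74.4 for H2-M3 and 45.9 for Nlrc5. Loading and proteasome genes spanned 60.2 (Tap1) to 99.0 (Calr) and 53.9 (Psmb9) to 92.1 (Psme1). These are ranks of probe sets, which differ in how well they bind, and they do not order the transcripts by amount. H2-Eb2 (18.6), H2-DMb2 (38.7), H2-Oa (21.4) and H2-Ob (16.2), the latter pair known for expression in B cells, did not pass the filter. H2-DMb1, H2-T23, H2-Q4, H2-Q7 and Psme2 had only probe sets that carry several gene symbols, and no value is given for them.

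No gene of antigen presentation separated RAG-/- from WT choroid plexus, under either reading of the genotypes. Of the 21 tested genes 0 passed limma's test after Benjamini-Hochberg adjustment over all 27022 probe sets, by description or by title, and each had an adjusted p of 1. Over all 13537 genes the share called was 0% in both fits. Unadjusted limma p-values under 0.05 were found for 192 and 332 of the 27022 probe sets, by description and by title. By gene they were found for 91 and 187 of the 13537 and for 0 of the 21. With shares that small in all genes, 0 of 21 says little about the listed genes. With the pair as a block, 0 of the 21 passed as well. Among all genes the block gave 0% by description and 0.00739% by title, which is the single gene Pttg1. A p that misses the threshold does not show equal levels, and the intervals below were wide.

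**Figure D2:**
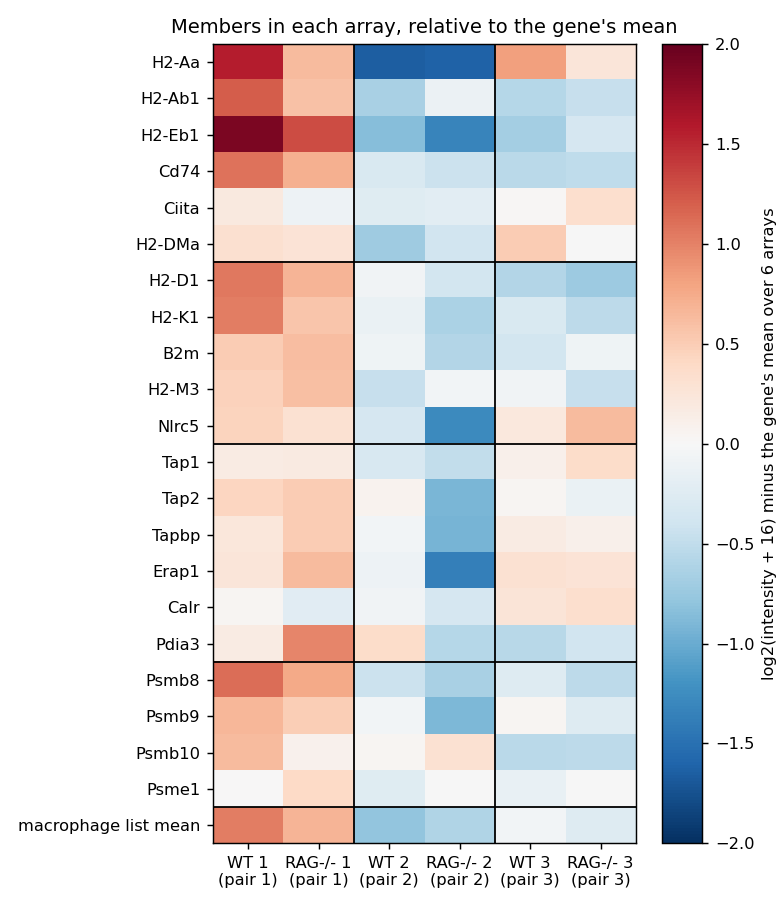
Level of each of the 21 genes in each array, as log2(intensity + 16) minus the gene's mean over the 6 arrays (colour, limited to 2 in either direction), with class II, class I, loading and immunoproteasome genes in blocks and the mean of the macrophage list in the last row. Columns are ordered by pair. Red fields gather in the 2 columns of pair 1, and RAG-/- 2 holds the lowest fields of Nlrc5, Erap1, Tapbp and Tap2. RAG-/- 2 was also the lowest array for H2-Eb1, H2-K1, B2m, Tap1, Calr, Pdia3, Psmb8 and Psmb9.

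H2-Aa, which encodes the alpha chain of I-A, was at 12.28 in WT 1, 9.06 in WT 2 and 11.53 in WT 3, and at 11.35, 9.09 and 10.95 in RAG-/- 1, 2 and 3. Both arrays of pair 2 were low and those of pairs 1 and 3 high, so the genotypes overlapped. RAG-/- minus WT was -0.49 (SE 0.87, n = 3 per group), and by title it was 0.13. Its partner, the beta chain H2-Ab1, was at 8.80, 6.95 and 7.01 in WT and at 8.17, 7.48 and 7.13 in RAG-/-. Here pair 1 alone was high, and the difference was 0.005 (SE 0.55) by description and 0.43 by title. H2-Eb1, the beta chain of I-E, was at 10.98, 8.24 and 8.41 in WT and at 10.40, 7.77 and 8.75 in RAG-/-. It spanned 3.21 log2 units over the arrays, with pair 1 again on top, while the genotypes differed by -0.24 (SE 0.86, 95% interval -2.21 to 1.74), or 0.15 by title.

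Cd74, the invariant chain that guides class II molecules to vesicles, was at 9.49, 8.10 and 7.86 in WT and at 9.11, 7.97 and 7.89 in RAG-/-. Within pairs 2 and 3 its arrays lay close together, 0.13 lower and 0.03 higher in RAG-/-, whereas both arrays of pair 1 were above all others. H2-DMa, which helps to exchange the invariant chain peptide, was at 8.86, 7.84 and 9.05 in WT and at 8.81, 8.15 and 8.54 in RAG-/-. As for H2-Aa, pair 2 was low and pairs 1 and 3 overlapped. Ciita, the coactivator of class II genes, was at 6.58, 6.13 and 6.41 in WT and at 6.29, 6.17 and 6.72 in RAG-/-, a range of 0.59. Both arrays of pair 2 were the lowest, as for H2-Aa and H2-DMa, but by a small margin. Its genotypes differed by 0.02 (SE 0.33) by description and 0.215 by title.

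The class I heavy chain H2-D1 was at 11.72, 10.59 and 10.07 in WT and at 11.33, 10.30 and 9.94 in RAG-/-. In each pair the RAG-/- array was lower by description, by 0.39, 0.29 and 0.14, yet the step from pair to pair was larger and the genotypes overlapped. The mean difference was -0.27 (SE 0.51, 95% interval -1.43 to 0.89), and by title -0.015. H2-K1, the other classical heavy chain, was at 11.26, 10.10 and 9.93 in WT and at 10.78, 9.59 and 9.71 in RAG-/-, again lower in the RAG-/- array of each pair by description. Its difference of -0.40 (SE 0.46) became -0.08 by title, since the sign of pair 1 turns. How many of all genes had the same sign in every pair was not counted, for these or for the genes below. B2m, the light chain of all class I molecules, was at 12.51, 11.91 and 11.64 in WT and at 12.62, 11.41 and 11.91 in RAG-/-, with a difference of -0.04 (SE 0.36), or -0.11 by title. Its pair 1 arrays were the highest, and its RAG-/- arrays lay on both sides of their WT partners.

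Nlrc5, the coactivator of class I genes, was at 6.82, 6.04 and 6.58 in WT and at 6.68, 5.10 and 7.01 in RAG-/-. RAG-/- 2 was low, and the difference was -0.22 (SE 0.53). H2-M3, which presents formylated bacterial peptides, lay between 8.30 and 9.36 and differed by 0.05. With the pair as a block the smallest unadjusted limma p among the 21 genes by description were 0.088 for H2-Aa and 0.099 for H2-K1, with adjusted p of 1.

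In the loading group, Tap1, one chain of the peptide pump, was at 7.55, 7.07 and 7.49 in WT and at 7.56, 6.90 and 7.76 in RAG-/-. It spanned only 0.86, and the genotypes differed by 0.04 (SE 0.34). Calr, a chaperone of the endoplasmic reticulum that serves many proteins besides class I, was at 13.52, 13.40 and 13.74 in WT and at 13.25, 13.15 and 13.81 in RAG-/-. Calr was highest in pair 3 and lowest in pair 2, and it differed by -0.15 (SE 0.22). Tap2, Tapbp, which bridges pump and class I molecule, and the peptide trimmer Erap1 were each lowest in RAG-/- 2, at 7.55, 10.07 and 7.48. Their differences were -0.36, -0.22 and -0.30, and -0.40, -0.41 and -0.56 by title. Pdia3, the thiol reductase that works with calreticulin, was highest in RAG-/- 1 at 12.36 and differed by 0.02, or by -0.52 by title.

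Of the immunoproteasome subunits, which replace constitutive ones under interferon gamma and in immune cells, Psmb8 was at 8.41, 6.87 and 7.04 in WT and at 8.05, 6.65 and 6.77 in RAG-/-. The RAG-/- array was lower in each pair by description, by 0.36, 0.22 and 0.27, and both arrays of pair 1 were above the other 4. The difference of -0.28 (SE 0.54) became -0.04 by title. Psmb9 was at 7.55, 6.83 and 6.93 in WT and at 7.38, 5.99 and 6.63 in RAG-/-, with a difference of -0.44 (SE 0.43, 95% interval -1.42 to 0.55) and -0.32 by title. Its RAG-/- arrays were also below their WT partners in all 3 pairs, and RAG-/- 1 was above WT 2 and WT 3. Psmb10 differed by -0.09, and by 0.27 by title. Psme1, a subunit of the proteasome activator, was higher in the RAG-/- array of each pair by description, with a difference of 0.26 (SE 0.25), and differed by -0.005 by title.

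By group, 2 of the 6 class II genes were higher and 4 lower in RAG-/- by description, with a median difference of -0.12, and by title 5 were higher and 1 lower, with a median of 0.14. Class I genes gave 1 higher and 4 lower, with a median of -0.22, and by title 0 and 5, with a median of -0.08. Loading genes gave 2 higher and 4 lower under both readings, with medians of -0.19 and -0.40. Immunoproteasome genes gave 1 higher and 3 lower under both readings, with medians of -0.185 and -0.02. Over all 13537 genes tested the medians were -0.01 and -0.03, with 6615 genes higher and 6922 lower by description. No listed gene had its 3 RAG-/- arrays all above or all below the 3 WT arrays at its brightest probe set, under either reading. Among all genes tested the groups lay apart with RAG-/- higher in 1.69% and lower in 1.41% by description, and in 2.2% and 2.53% by title.

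Markers of other cell types differed between the arrays of the 2 genotypes beside these genes. Fibroblast genes gave 0 higher and 10 lower in RAG-/- by description, with a median of -1.01, and 1 and 9 by title, with a median of -0.41. Their mean level lay between 11.02 and 11.97 in WT and between 9.54 and 11.03 in RAG-/-, and 5 of the 10 did not overlap by description and 0 by title. Endothelial genes gave 0 higher and 9 lower, with a median of -0.41, and 2 and 7 by title, with a median of -0.14. Their means lay between 8.55 and 9.31 in WT and between 7.91 and 8.83 in RAG-/-. Oligodendrocyte genes gave 9 higher and 0 lower under both readings, with medians of 1.08 and 1.24, and means between 9.80 and 10.46 in WT and between 10.02 and 11.72 in RAG-/-. Of these 9 genes 1 lay apart by description and 5 by title, all higher in RAG-/-. Of the 9 endothelial genes 1 lay apart under each reading, lower in RAG-/-. Among all genes tested 1.69% lay apart as higher and 1.41% as lower by description, and 2.2% and 2.53% by title. None of these fibroblast, endothelial and oligodendrocyte genes passed limma's threshold in either fit. Unadjusted limma p-values were under 0.05 for 4, 0 and 3 of them by description and for 0, 0 and 9 by title. Their part in the differences of the class I and class II genes was not tested.

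**Figure D3:**
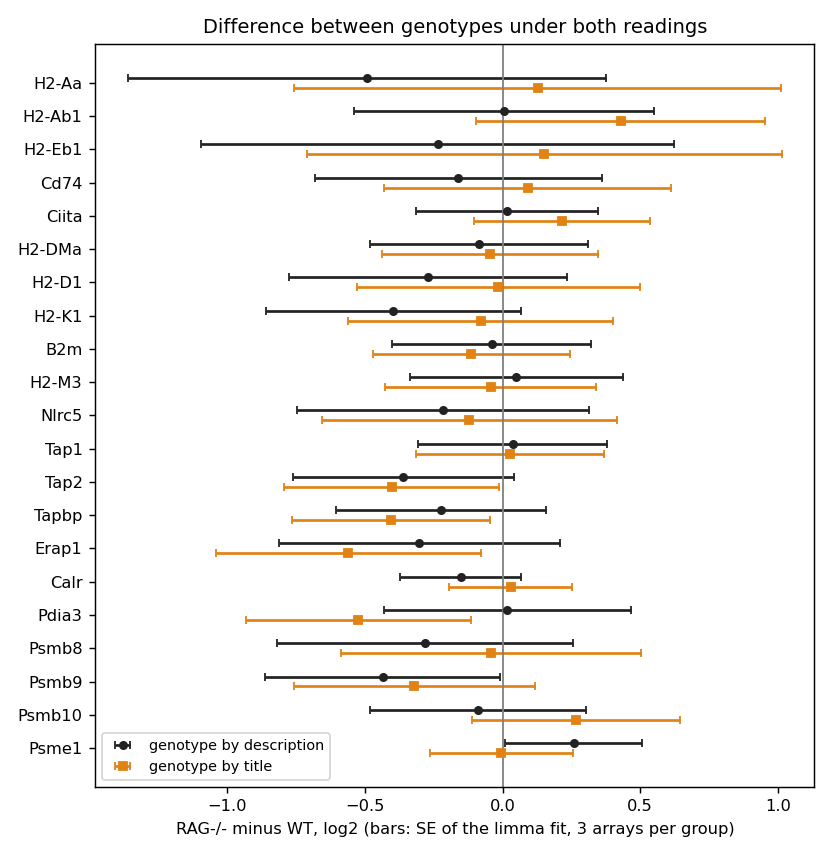
Difference between the genotypes (RAG-/- minus WT, log2) for each of the 21 genes, with the genotype by description (black circles) and by title (orange squares), and bars for the SE of the limma fit with 3 arrays per group. The symbols lie between -0.56 and 0.43, and 8 of the 21 differences have another sign by title than by description.

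Genes of the same pathways outside the list gave the same counts of calls. Of 17 tested genes that support class II presentation, such as the protease Ctss, which cleaves the invariant chain, and H2-Ea, 0 passed under either reading, with 9 higher and 8 lower by description (median 0.02) and 4 higher and 13 lower by title (median -0.10). Of 8 tested genes of the wider class I pathway 0 passed, with 3 higher and 5 lower by description and 1 and 7 by title. Of 16 constitutive proteasome genes 0 passed, and 13 were higher and 3 lower by description, with a median of only 0.06, and 9 and 7 by title, with a median of 0.02. Of 8 genes of interferon gamma signalling 0 passed, with 1 higher and 7 lower by description (median -0.20) and 3 and 5 by title (median -0.10). Among them Irf1, an interferon-induced transcription factor, was at 9.56, 9.67 and 10.02 in WT and at 9.34, 8.95 and 9.14 in RAG-/-, so that its groups did not overlap by description, as for 1.41% of all genes in that direction. By title its groups overlapped. Its limma adjusted p was 1 under both readings. By title the groups lay apart, with RAG-/- lower, for 2 of the 17 class II genes and for 1 other interferon gamma gene. Among all genes tested the share was 2.53% in that direction.

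The larger pattern in these genes lay between the pairs and not between the genotypes. Means of H2-Aa, H2-Ab1, H2-Eb1 and Cd74 were 10.39, 8.09 and 8.70 in WT 1, 2 and 3 and 9.76, 8.08 and 8.68 in RAG-/- 1, 2 and 3. Means of H2-K1, H2-D1 and B2m were 11.83, 10.87 and 10.55 in WT and 11.58, 10.43 and 10.52 in RAG-/-. Both means were highest in the 2 arrays of pair 1, whichever genotype those are given. The class II mean spanned 2.31 log2 units and the class I mean 1.39. The median gene spanned 1.74 among class II genes, 1.66 among class I genes, 1.43 among loading genes, 1.36 among immunoproteasome genes and 1.08 among all genes tested. Constitutive proteasome genes, with a median span of 0.68, varied less.

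**Figure D4:**
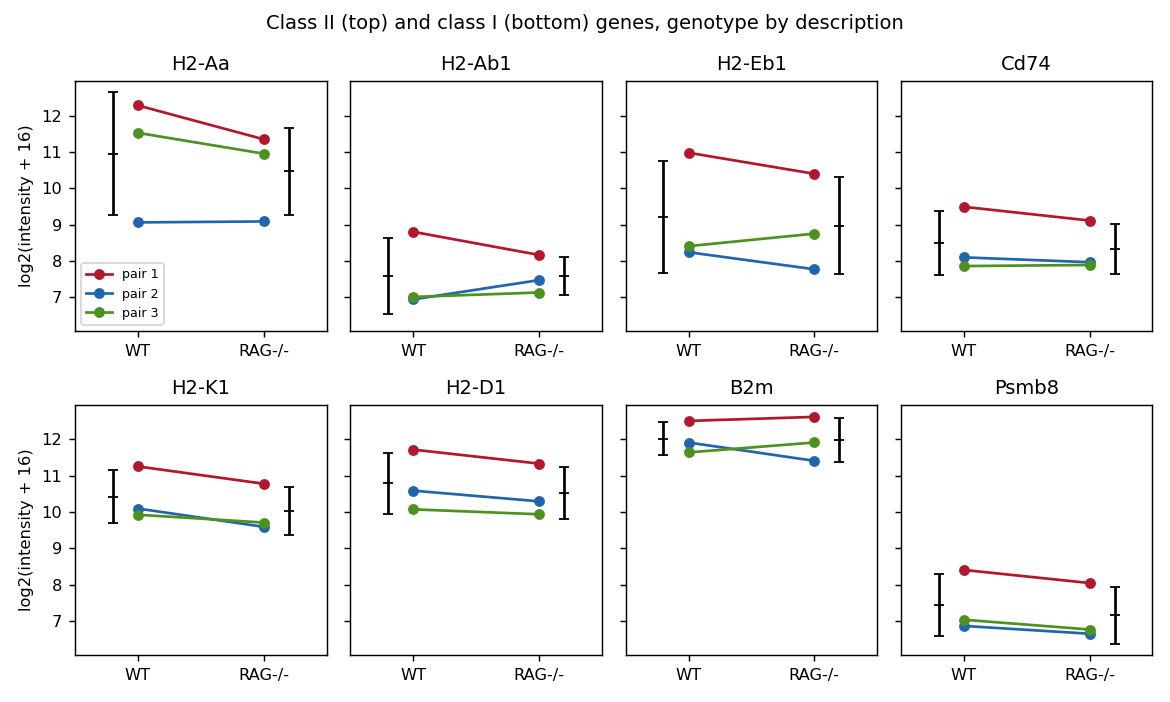
Levels of 4 class II genes (top) and of 3 class I genes and Psmb8 (bottom) as log2(intensity + 16), with 1 line per pair joining the WT and the RAG-/- array by description, and black bars for the mean and SD of each genotype (n = 3). The red line of pair 1 is uppermost in all 8 panels, and pair 3 joins it only for H2-Aa.

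The test between the 3 pairs, with genotype as a term, passed for 0 of the 21 genes and 0% of all genes by description. The adjusted limma p of H2-Aa was 0.0615, a value that adjustment gave also to genes with a smaller unadjusted p, such as the macrophage gene Lyz2, followed among the genes listed here by 0.0704 for H2-Eb1, 0.0829 for H2-D1, 0.0979 for Cd74, 0.0992 for H2-K1 and 0.101 for Psmb8. With the genotype by title H2-Eb1 passed (limma, adjusted p = 0.0498), as did 0.51% of all genes, and H2-Aa had 0.0528. Means of pairs 1, 2 and 3 were 10.69, 8.01 and 8.58 for H2-Eb1 and 11.82, 9.08 and 11.24 for H2-Aa. H2-Eb1 therefore had 1 high pair and H2-Aa a pair of high ones. Pair 1 had the highest mean for 17 of the 21 genes, against 27.6% of all genes tested. The exceptions were Ciita, Nlrc5, Tap1 and Calr, which were highest in pair 3.

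Both arrays of pair 1 lay above the other 4 for 12 of the 21 genes, against 8.75% of all genes tested, a count made after the values had been seen. These were 3 of 6 class II genes (H2-Ab1, H2-Eb1 and Cd74), 4 of 5 class I genes (all but Nlrc5), 2 of 6 loading genes (Tap2 and Tapbp) and 3 of 4 immunoproteasome genes (all but Psmb10). The coactivators Ciita and Nlrc5 were not among them. Of 16 constitutive proteasome genes 1 had this pattern. Apart from this code in the titles the labels do not say what a pair shares, so that animals, dissection and array handling cannot be told apart.

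Probe sets of 1 gene did not all show the same pairs. A second probe set of H2-Aa was at 11.68, 5.73 and 10.29 in WT and at 10.86, 6.75 and 9.89 in RAG-/-, a span of 5.95 with pair 2 low, as at the brightest one. Another was at 8.05, 6.28 and 6.25 in WT and at 7.79, 5.10 and 4.65 in RAG-/-, high in pair 1 alone. Whether H2-Aa was high in pair 3 thus depends on the probe set. A second probe set of H2-Ab1 was at 7.35, 4.98 and 4.88 in WT and at 6.58, 6.37 and 6.21 in RAG-/-, where WT 2 and WT 3 were low. Over all 56 probe sets of these genes the groups lay apart by title in 3, all dim and left out by the filter, 1 of H2-D1 with RAG-/- higher and 1 each of Ciita and H2-DMb2 with RAG-/- lower. Among all 45037 probe sets, dim ones included, the shares by title were 3.04% higher and 3.49% lower. By description 0 of the 56 lay apart.

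Over the 6 arrays 4 of the 6 class II genes followed the mean of macrophage genes, with a Pearson's r above 0.8. For H2-Ab1 and Cd74 this rested on pair 1, and no such relation passed adjustment, as given below. The mean of 23 macrophage genes, among them Csf1r, the receptor on which macrophages depend, was 9.25, 7.44 and 8.17 in WT and 8.91, 7.63 and 7.97 in RAG-/-, highest in pair 1. Csf1r itself was at 12.71, 11.20 and 12.57 in WT and at 12.41, 11.82 and 12.30 in RAG-/-, and Ptprc, the common leukocyte marker CD45, at 9.67, 7.62 and 8.57 and at 9.11, 7.30 and 8.05. Cd68, a lysosomal protein of macrophages, ran from 6.18 in RAG-/- 2 to 8.08 in WT 1. In tissue RNA, more macrophages and more RNA of these genes per macrophage cannot be told apart. Of 23 macrophage genes 15 (65.2%) had both pair 1 arrays on top.

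Pearson's r with the macrophage mean over the 6 arrays was 0.96 for H2-Eb1 (exact permutation p = 0.00694, adjusted 0.0875, Spearman's rho 0.89) and 0.95 for Psmb8 (exact permutation p = 0.00833, adjusted 0.0875, rho 0.83). None of the 21 relations passed 0.05 after adjustment over the 21, and the smallest adjusted p of rho was 0.204. The permutations treat the arrays as independent, although they come in pairs. For H2-Aa r was 0.88 (exact permutation p = 0.0375, adjusted 0.12, rho 0.94) and it was 0.97 without the 2 arrays farthest from the median, which are those of pair 1. For H2-Eb1 and Psmb8 r without them was 0.57 and 0.52. For H2-Ab1, Cd74, H2-K1, H2-D1 and B2m r was 0.89, 0.89, 0.88, 0.79 and 0.83 over the 6 arrays and -0.16, -0.95, -0.18, -0.88 and -0.05 without those of pair 1. Their relation therefore rests on pair 1, whereas r of H2-Aa and of H2-DMa (0.76, and 0.99 without pair 1) stayed high over the other 4 arrays. Those 4 arrays are only 2 pairs, so a relation across arrays cannot be told from a step between the pairs. For H2-Aa that step also depends on the probe set, as described above.

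The median r was 0.88 for class II genes, 0.83 for class I genes, 0.72 for immunoproteasome genes and 0.60 for loading genes, against 0.03 for the 13514 genes outside the macrophage list. An r above 0.8 was found for 4 of 6, 3 of 5, 2 of 4 and 0 of 6 of them, and for 3.46% of those 13514 genes. Ciita (0.45), Psmb10 (0.40) and Calr (0.05) were the lowest. These values describe 6 arrays in 3 pairs and are no test that the groups differ.

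**Figure D5:**
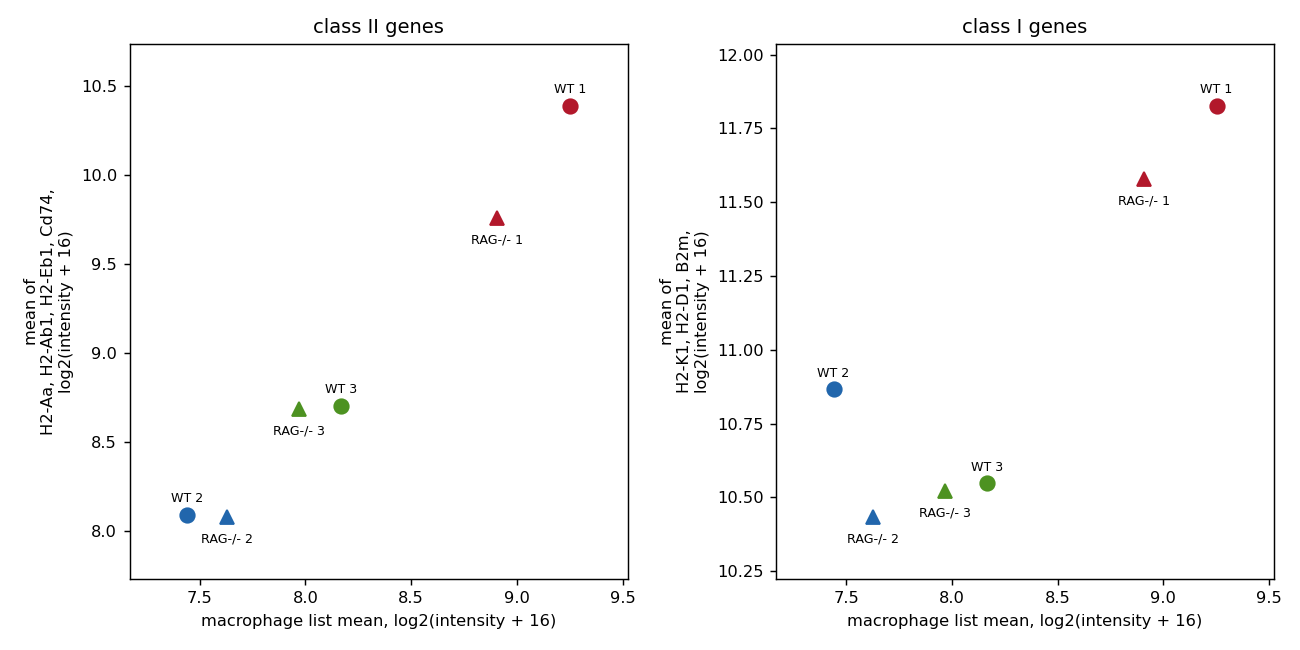
Mean of 4 class II genes (left) and of 3 class I genes (right) against the mean of 23 macrophage genes, all as log2(intensity + 16), with 1 point per array, circles for WT and triangles for RAG-/- by description, and colours for the pairs. The class II mean is lowest in both arrays of pair 2, intermediate in pair 3 and highest in pair 1, whereas the class I mean sets pair 1 apart from the other 4 arrays, between 10.43 and 10.87. The order of pairs 2 and 3 on the left comes from H2-Aa (means 9.08 and 11.24) and H2-Eb1 (8.01 and 8.58). H2-Ab1 (7.21 and 7.07) and Cd74 (8.03 and 7.88) were lowest in pair 3.

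Macrophage genes were not alone in moving with these genes. The median r with the mean of the 4 class II genes was 0.83 for macrophage genes, 0.65 for 9 endothelial genes, 0.63 for 10 fibroblast genes and 0.36 for 9 epithelial genes. It was 0.12 for 4 B cell genes and -0.17 for 4 dendritic cell genes, and 0.02 for all genes that are not listed here. With the mean of the 3 class I genes it was 0.77 for macrophage, 0.77 for endothelial and 0.65 for fibroblast genes. Class I molecules are normally made by all of these cells. The part of endothelium and fibroblasts in the results was not tested.

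Markers of dendritic cells and lymphocytes did not all give the same picture. Itgax, which encodes CD11c of dendritic cells, lay at the 35.4 percentile, between 5.12 and 6.38, Cd79b of the B cell receptor at 26.1 and Cd3e of the T cell receptor complex at 22.3, and these 3 did not pass the filter. Of the listed markers 4 of 10 dendritic cell, 4 of 9 B cell and 2 of 9 T cell genes passed it. Of the 2 T cell genes, Thy1, which neurons also make, lay at the 89.5 percentile with 9.73 to 12.69. Cd8a lay at 67.4 with 7.62 to 8.47, below the median of 77.1 for all genes tested. The genotypes overlapped for Thy1 and for Cd8a under both readings. Cd79b was at 5.74, 5.38 and 5.85 in WT and at 6.34, 4.85 and 4.49 in RAG-/-, so that the groups overlapped.

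The genes most like the mean of H2-Aa, H2-Ab1, H2-Eb1 and Cd74 over the 6 arrays were Use1 (r = 0.994), Nos3 (0.991), Slc22a6 (0.99), Uba7 (0.99), Cd52 (0.985), Samsn1 (0.981), Supt16 (0.98), Lzts1 (0.979), Slc6a13 (0.976) and Itgb2 (0.975). They were chosen as the highest among 13516 genes, and with 6 arrays many genes reach such values. Cd52, a small surface protein of leukocytes, was at 9.79, 7.33 and 8.21 in WT and at 9.50, 7.07 and 7.96 in RAG-/-. Itgb2, the beta chain of leukocyte integrins, was at 8.61, 5.88 and 7.20 and at 8.24, 6.11 and 7.08. Both thus had the order of pairs 1, 3 and 2. Slc6a13 and Slc22a6, transporters of GABA and of organic anions, had pair 1 highest as well, Slc6a13 at 10.80 in WT 1 and 9.23 in RAG-/- 1 against 6.87 to 7.99 elsewhere. Most like the mean of H2-K1, H2-D1 and B2m were Lmcd1 (0.992), Sphk1 (0.989), Gtf2e2 (0.983), Mpv17 (0.98) and Cryl1 (0.98). The class I and class II means themselves correlated at 0.9.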

How the data were processed

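The 6 arrays carried 45101 probe sets, of which 64 controls were left out. The deposited values are linear intensities, 1 per probe set and array. What the authors did to make them is not given in the sources used here. Every array has a mean of 500 once 2% of probe sets at each end are set aside, so each was scaled. They were taken as log2(intensity + 16) and quantile normalized, because the upper quartiles differed by 0.24 between arrays. The pseudocount understates folds of dim genes. The lowest 40% by mean were left out, and the brightest probe set with 1 symbol stood for a gene. Of 45037 probe sets 34945 had 1 symbol, 932 several and 9160 none, and 34741 matched the GRCm38.p6 gene table. Differences were tested two-sided with limma 3.58.1 (trend) in R 4.3.3, adjusted by Benjamini-Hochberg over 27022 probe sets, with a threshold of 0.05. The fit was tested on simulated data. Deviations from group means correlated at 0.29, 0.39 and 0.58 within pairs 1, 2 and 3. Correlations across pairs were not set beside them, so that the pairing rests on the code in the titles. The genes and lists described were chosen with earlier results of these data known. Values in every array are given for 14 genes fixed by name, and of other lists at most the 2 genes with the smallest p and fixed markers are named, not all of which are reported here. Exact permutation used all 720 pairings. Alternatives changed the genotype label, block, normalization, pseudocount, filter, array weights, probe set, single arrays and single pairs.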

Additional observations from a re-analysis of the deposited data

How the results depend on the processing

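The count of listed genes past the threshold between genotypes was 0 under every alternative run. Among all probe sets it was 0, and 1 with the replicate block and the genotype by title, 2 with pair 2 left out, and 0 to 4 when single arrays were left out, with 4 without RAG-/- replicate 2. Between the pairs 1 listed gene passed with the genotype by title. The median differences moved by less than 1 SD between arrays but changed sign. The class II median was 0.14 by title, 0.17 without WT 1 and 0.11 without RAG-/- 2, and ran from -0.42 to 0.17 over single arrays left out. The class I median was 0.19 without WT 1 and 0.09 without RAG-/- 2. The loading median was 0.24 without RAG-/- 2, 0.09 with array weights and 0.13 with pair 2 left out, and the immunoproteasome median was 0.20 without WT 1 and 0.03 without RAG-/- 3. Without WT 1, or without RAG-/- 2, 9 of the 21 differences changed sign. The pair as a block changed no call among the listed genes. The r of H2-K1 with the macrophage mean was -0.11 with pair 1 left out, and that of H2-Aa was 0.62 with the median of the macrophage list; the cause was not tested. Genes with both pair 1 arrays on top numbered 12 to 14 over the settings tried, among 8.38% to 13.5% of all genes. Settings for that count, and the genotype by title between pairs, were chosen after seeing the data. With 3 arrays a group the precision is limited by their number, and dim probe sets lie near background.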
